A study of Mustela putorius furo and Mus musculus with 4 samples.

Results

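The genes described here build and supply the primary cilium, the single sensory antenna of a radial glial (RG) cell. They were chosen by name: every gene of the deposited tables whose symbol is Ift or Bbs followed by a digit, Tctn1 to Tctn3, Wdr19, Wdr35, Kif3a, Kif3b, Kifap3, Tulp3, Cep290, Rpgrip1l, Mks1, B9d1 or B9d2. The rule used no measured value, but its list was set with earlier results of these data known. It found 35 of the 17170 genes of the mouse table and 36 of the 22008 genes of the ferret table. All 35 mouse genes have a row in the ferret table, and TCTN2 was analysed in ferret only.

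The members fall into 6 groups by their known roles. Intraflagellar transport complex B (IFT-B; Ift20, Ift22, Ift27, Ift46, Ift52, Ift57, Ift74, Ift80, Ift81, Ift88 and Ift172) carries cargo out along the axoneme with the kinesin-2 motor (Kif3a, Kif3b and its adaptor Kifap3), and complex A (IFT-A; Ift43, Ift122, Ift140, Wdr19 and Wdr35) takes part in the return trip and in entry of membrane receptors. The BBSome and the chaperonins that assemble it (Bbs1, Bbs2, Bbs4, Bbs5, Bbs7, Bbs9, Bbs10 and Bbs12) move receptors out of the cilium, and the transition zone at its base (B9d1, B9d2, Cep290, Mks1, Rpgrip1l, Tctn1 to Tctn3) is the gate between cilium and cell. Tulp3 stands alone and delivers membrane proteins to the cilium. In vertebrates SMO, the transducer of Sonic Hedgehog (SHH), signals from this compartment, and loss of many of these genes disturbs SHH signaling and the processing of GLI3.

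The mouse libraries were made from the E18 cortex of hGFAP-Cre;SmoF/F mice (Smo-cKO) and of their littermate SmoF/F mice without Cre (control, called wild type in the labels), both of CD1 strain. In both, CellTrace Yellow (FlashTag), a dye that marks cells dividing at the ventricle, was injected into the lateral ventricle at E17, and labeled cells were sorted 24 h later, so these libraries do not hold the cortex as a whole. In the Smo-cKO mice Cre is driven by the human GFAP promoter, which is active in RG cells, and cells outside that lineage keep Smo. The ferret data are from the unsorted E39 cortex of 1 wild type embryo and come as 2 sets of cell barcodes, which are not replicate animals. There was 1 library per genotype, so sizes are given with intervals that cover counting error only, and no test between genotypes was possible.

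After the cell limits, 10498 control and 7209 Smo-cKO cells remained, with a median of 4033.5 and 4836 unique molecular identifiers (UMIs) per cell, and 10185 and 13052 ferret cells with medians of 2556 and 3563. Genotype was assigned by barcode suffix, because each suffix has as many barcodes as the study states cells for that genotype. If this assignment were wrong, every genotype direction would be reversed. The suffixes share 28 barcode sequences in mouse and 38 in ferret. Cells were clustered without the member genes and classes were named from marker lists. In RG-like cells Smo had 63 UMIs, or 19.1 counts scaled to 1000000 UMIs (CPM), in the control library and 2 UMIs, or 0.407 CPM, in the library assigned to Smo-cKO. Its target Ptch1 had 72 and 10 UMIs, and Gli1 had 24 and 0. The 14 RG markers summed to 54517 and 53015 CPM in these cells. Of them, 11 passed the limits used for naming in the mouse RG-like cluster, and Pax6, Sox2 and Nes did not. The astrocyte markers Aqp4, Gfap, Aldh1l1 and Slc1a2 also passed there, while S100b, Gja1 and Agt did not. The mouse RG-like class may therefore include cells of the astrocyte lineage. Of mouse cells, 10.1% of control and 8.16% of Smo-cKO stayed unnamed, and of ferret cells 59.1% and 52.0%.

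Among the 7 named mouse classes with at least 50 cells in each library, the members' summed level was highest in RG-like cells, and smaller classes were not summed. The 35 members held 96562 UMIs over the mouse cells. Their sum in RG-like cells was 1239 CPM (95% Poisson interval 1202 to 1278) in control and 1245 CPM (1214 to 1276) in Smo-cKO. It was 1205 and 1149 CPM in cycling RG-like cells, 1062 and 1076 CPM in the intermediate progenitors of pyramidal neurons (PyN-IPC-like), 979 and 947 CPM in cycling bMIPC-like cells, progenitors with Egfr and Olig2 as markers, 978 and 967 CPM in interneuron-like cells, and 972 and 923 CPM in pyramidal neuron (PyN)-like cells. A cluster led by the S-phase gene Ung supplied 672 of the 1709 control and 243 of the 588 Smo-cKO bMIPC-like cells. That cluster also held the RG markers Tnc and Mfge8, so RG cells in S phase may be among them. With the member genes kept in the clustering, an RG-like cluster with S-phase markers stood apart, with 242 control and 143 Smo-cKO cells. Microglia-like cells were lowest, at 421 and 442 CPM, and at 338 CPM in Smo-cKO without 1 cell that held 193 Tulp3 UMIs. The RG-like and cycling RG-like intervals overlap in control, and those of PyN-like, bMIPC-like and interneuron-like cells overlap in both libraries.

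**Figure D1:**
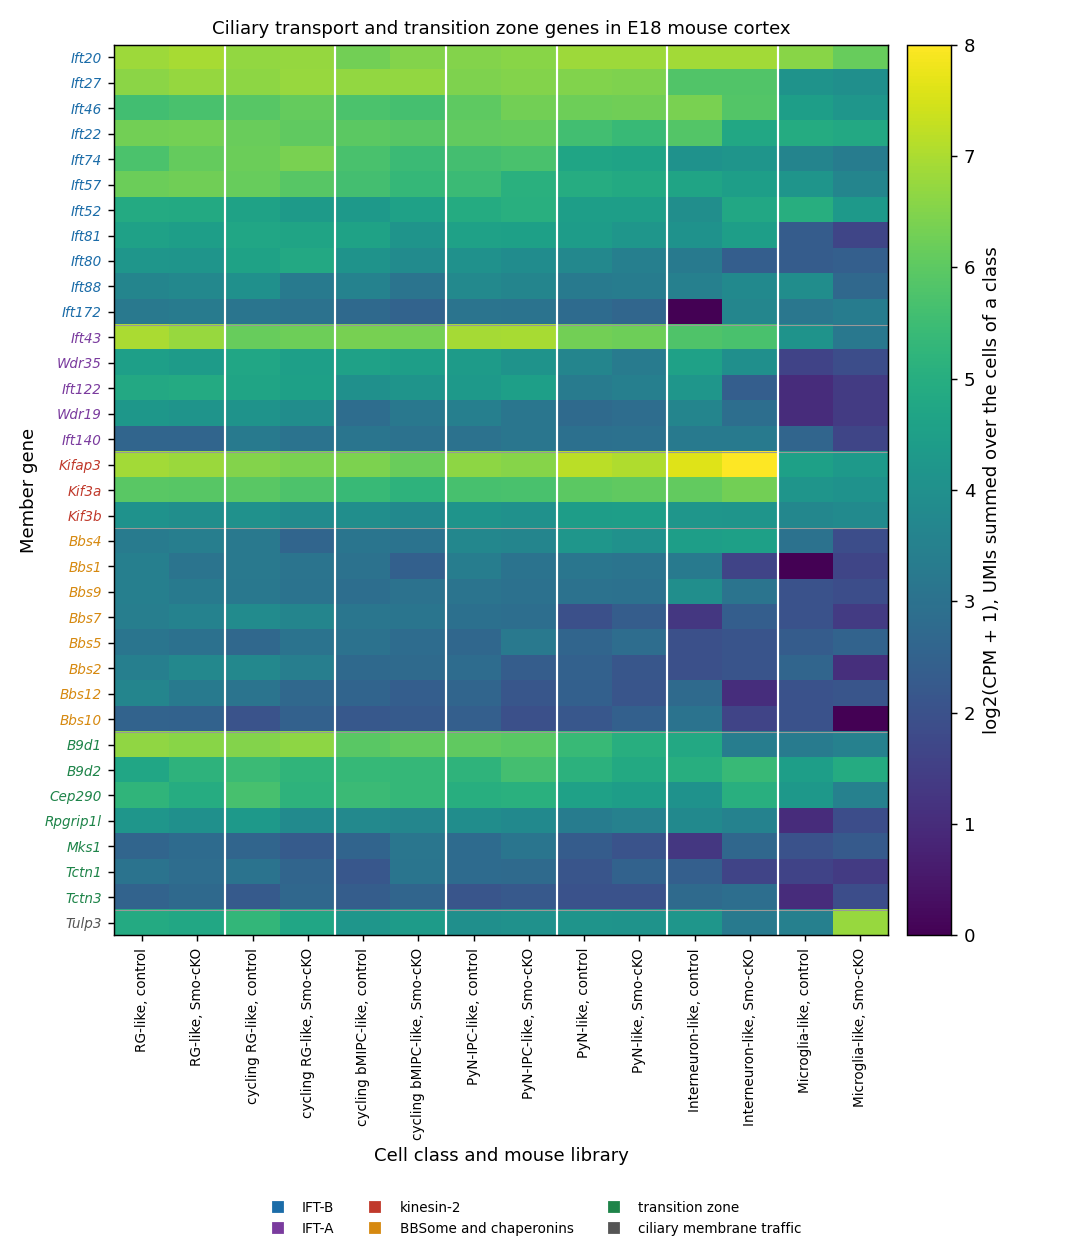
Level of each of the 35 mouse members (rows, colored by group) in each cell class of the control and Smo-cKO libraries (columns), as log2(CPM + 1) of UMIs summed over the cells of a class. The RG-like and PyN-like columns differ little between the libraries (no tested member reaches 1.5-fold), Kifap3 is brightest in interneuron-like cells, and the bright Tulp3 field in Smo-cKO microglia-like cells comes mostly from 1 cell.

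Counts were concentrated in few members. In control RG-like cells Ift43, Kifap3, Ift20, B9d1 and Ift27 held 44.7% of the members' UMIs, and in Smo-cKO the 5 leading members held 43.4%. Levels in control RG-like cells ran from 4.84 CPM for both Bbs10, a chaperonin-like BBSome assembly factor, and the tectonic Tctn3, to 125 CPM for Ift43. UMIs were counted per gene and not divided by gene length, so these values describe how well each gene was counted rather than a ranking of transcripts. The 35 genes are protein coding and lie on 17 chromosomes (mm10, GENCODE vM21). None has another gene of the table overlapping it on its own strand, while Ift74, Ift140, Bbs12, Bbs4, Cep290 and Tctn1 overlap a gene on the other strand, whose reads can be told apart only if the counting used strand, which is not stated.

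Depth differed between classes, so shares of cells with a UMI were also computed after thinning to 2900 UMIs, which leaves out shallower cells. This kept 606 of 688 control and 665 of 704 Smo-cKO RG-like cells, and 90 of 97 and 159 of 176 microglia-like cells. A UMI of Ift57, an IFT-B subunit, was found in RG-like cells at a share of 27.8% in control (24.4 to 31.3, exact 95% interval by Clopper-Pearson) and 39.8% in Smo-cKO (36.1 to 43.5), at median depths of 4386.5 and 6659.5 UMIs. After thinning these shares were 18.5% and 20.1%. In microglia-like cells (median 8258 and 7578.5 UMIs) the Ift57 shares were 14.4% (8.12 to 23.0) and 9.09% (5.29 to 14.3), and 3.53% and 2.90% after thinning. How much of any of these shares comes from free RNA in the droplets was not measured. For Ift20, which also works at the Golgi, the share was 39.8% (36.1 to 43.6) and 52.8% (49.1 to 56.6) in RG-like cells against 54.6% (44.2 to 64.8) and 43.2% (35.8 to 50.8) in microglia-like cells, and 27.5% and 29.5% against 22.0% and 17.6% after thinning. The order of the control shares thus turned with thinning, and Ift20 was at 113 CPM in RG-like and 93.9 CPM in microglia-like cells of control, so no order is read from the unthinned share.

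The first comparison asks whether loss of Smo, the receptor-like protein that signals inside the cilium, was accompanied by another level of the genes that build it. In RG-like cells (688 control and 704 Smo-cKO cells) no member differed by 1.5-fold. Of the 35 members, 31 had at least 50 UMIs over both libraries, and 0 were higher and 0 lower past 1.5-fold. Over all 9348 genes with that many UMIs, 5.64% were higher and 4.73% lower past the same fold. The members' median log2 ratio (Smo-cKO over control, 1 CPM added) was -0.04, ranging from -0.39 to 0.44, and the median of all genes was 0.01. Tctn3, Mks1, Bbs10 and Ift140 were below 50 UMIs. Clustered without integration, the RG-like cells of the libraries fell mostly into separate clusters, one with 1014 control and 46 Smo-cKO cells and another with 108 and 932. Between the libraries over both clusters, 0 of 35 members passed 1.5-fold, beside 11.3% of the 10611 genes tested in that setting.

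Counting intervals that left out a ratio of 1 were found for 3 of these members, all within 1.5-fold. The share of all genes with such an interval is not given here. With 1 library per genotype, no genotype difference is read from this count or from the 3 members. B9d2, a transition zone protein, was at 25.7 CPM in control and 35.4 CPM in Smo-cKO (ratio 1.37, 95% interval 1.05 to 1.80). Ift74, which with Ift81 forms the tubulin-binding module of IFT-B, was at 52.1 and 68.7 CPM (1.32, 1.1 to 1.6). Ift43, an IFT-A subunit, was at 125 and 107 CPM (0.855, 0.751 to 0.975). The 3 kinesin-2 genes lay slightly lower in Smo-cKO, with Kifap3 at 118 and 110 CPM, Kif3a at 60.6 and 59.4 CPM and Kif3b at 15.7 and 14.6 CPM, and each interval included 1. Ift20 was at 113 and 123 CPM, Ift27 at 96.0 and 107 CPM and Tulp3 at 28.5 and 27.0 CPM. Intervals were wide for members with few UMIs, such as Tctn1 of the transition zone at 7.27 and 6.30 CPM (0.867, 0.493 to 1.54) and the BBSome subunit Bbs1 at 9.99 and 7.52 CPM (0.753, 0.458 to 1.24). The Tctn1 interval includes a 1.5-fold difference in either direction, and the Bbs1 interval a 1.5-fold lower level.

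**Figure D2:**
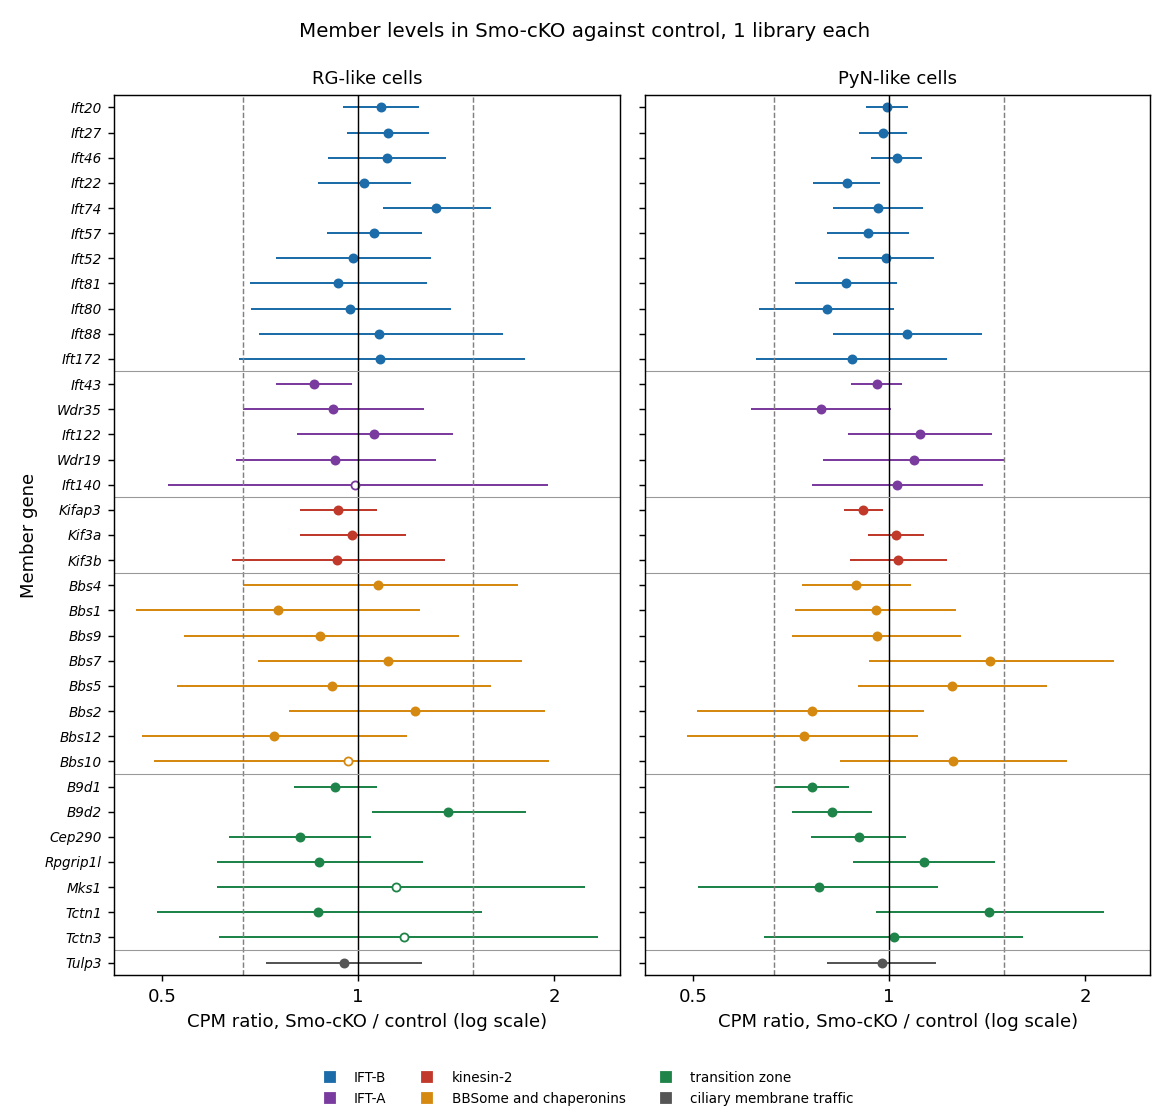
CPM ratio of Smo-cKO over control for each member in RG-like cells (left) and PyN-like cells (right), on a log axis. Points are ratios, bars are exact 95% intervals for counting error, open points have fewer than 50 UMIs, and dashed lines mark 1.5-fold in each direction. Every filled point lies between the dashed lines, from 0.742 for Bbs12 to 1.37 for B9d2 in RG-like cells.

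The pyramidal neuron lineage gave the same count. In PyN-like cells (3826 and 3144 cells) all 35 members had at least 50 UMIs, with 0 higher and 0 lower, beside 2.67% and 1.27% of all genes, and a median log2 ratio of -0.05, while that of all genes was 0.05. B9d1, a transition zone protein, was the member whose interval lay farthest below 1, at 41.3 CPM in control and 31.5 CPM in Smo-cKO (0.762, 0.670 to 0.865), while in RG-like cells it was at 102 and 94.2 CPM (0.923, 0.80 to 1.06). B9d2, which was higher in Smo-cKO than in control in RG-like cells, was lower in PyN-like cells, within 1.5-fold. In PyN-IPC-like cells 0 of 35 were higher and 0 lower, beside 4.54% and 1.56% of all genes, with a median of -0.03, while that of all genes was 0.06. In the smaller interneuron-like class (173 and 294 cells) 8 members had at least 50 UMIs, with 0 higher and 1 lower, beside 7.13% and 4.75% of all genes. That member was Ift22, an IFT-B subunit, at 57.6 CPM in control and 26.7 CPM in Smo-cKO (0.463, 0.269 to 0.782), from 40 and 25 UMIs. In microglia-like cells 1 of 7 members was higher and 1 lower, beside 12.7% and 12.3% of all genes. The lower one was Ift52, an IFT-B subunit, at 31.3 and 19.1 CPM (0.609, 0.365 to 1.02), and the higher one was Tulp3, which was at 10.1 CPM in control and 108 CPM in Smo-cKO, or 3.31 CPM without 1 Smo-cKO cell, from 10 and 6 UMIs. In the unnamed cells 0 of 35 were higher and 1 lower, beside 4.66% and 3.83%, and it was Bbs12 at 7.67 and 4.78 CPM (0.623, 0.360 to 1.05).

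In cycling RG-like cells (919 and 427 cells) 0 of 32 members were higher and 2 were lower past 1.5-fold, beside 3.72% of all genes higher and 6.61% lower. The members' median log2 ratio was -0.19, with 24 of 32 below 0, and that of all genes was -0.05, with 57.9% below 0. The 2 genes, which were picked out after their values were seen, were Ift88, a core IFT-B subunit, at 15.2 CPM in control and 8.71 CPM in Smo-cKO (0.574, 0.380 to 0.849), and Bbs4, a BBSome subunit, at 8.46 and 5.08 CPM (0.601, 0.345 to 1.01). They rest on 36 and 21 UMIs in Smo-cKO. The median depth of the class was 5994 UMIs per cell in control and 9056 in Smo-cKO, and a Pttg1-led cluster supplied 527 of the 919 control and 263 of the 427 Smo-cKO cells, the rest coming from a cluster led by the histone gene Hist1h2ap. The part of depth and of this composition in the ratios was not tested. In cycling bMIPC-like cells 1 of 35 members was higher and 0 lower, beside 6.76% and 4.32% of all genes. It was Tctn1, a tectonic of the transition zone, with 39 UMIs in control and 36 in Smo-cKO, 22 of which came from 1 cell.

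The next comparison asks where along the lineage from RG cell to pyramidal neuron the members are expressed. More members were higher in RG-like than in PyN-like cells than the reverse. In control, 15 of 35 were higher and 2 lower past 1.5-fold, beside 23.3% and 26.7% of all genes. In Smo-cKO, 15 of 35 were higher and 1 lower, beside 24% and 27.5%. The members' median log2 ratio was 0.49 in control and 0.49 in Smo-cKO, and that of all genes was -0.07 and -0.09. The libraries shared 11 of the 15 higher members (73.3% of each list): B9d1, Bbs2, Bbs7, Bbs12, Ift22, Ift57, Ift74, Ift122, Tulp3, Wdr19 and Wdr35. Over all genes tested in both libraries, 84.8% of those higher in control and 87% of those higher in Smo-cKO were shared. As the classes themselves were defined from these cells, the ratios are a description.

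Counts by complex are small, and a group of this size cannot be told from the background by its count alone. Of the IFT-A genes, 4 of 5 were higher in mouse RG-like than in PyN-like cells of control and 3 of 5 in those of Smo-cKO, beside 23.3% and 24% of all genes. Ift122 stood at 27.3 CPM in RG-like and 9.01 CPM in PyN-like cells of control (ratio 3.02, 95% interval 2.28 to 4.00) and at 28.9 and 10.1 CPM in Smo-cKO (2.87, 2.25 to 3.66). Wdr35 was at 21.8 and 11.5 CPM in control and at 19.9 and 9.09 CPM in Smo-cKO. Ift43 was at 125 and 76.9 CPM in control and at 107 and 73.7 CPM in Smo-cKO, and it stayed high in PyN-IPC-like cells, at 121 and 122 CPM. Within that class its level was 134 and 123 CPM in the cluster led by the proneural gene Neurog2. Ift140 was the exception among IFT-A genes, at 5.15 CPM in RG-like and 6.78 CPM in PyN-like cells of control. In ferret, 0 of 4 tested IFT-A members were higher and 0 lower in set 1, beside 19% higher and 20.9% lower of all genes, and 0 of 5 were higher and 1 lower in set 2, beside 23.5% and 21.3%. The medians were -0.02 and 0.00.

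Among IFT-B genes, 3 of 11 were higher and 1 lower in control, beside 23.3% and 26.7% of all genes, and 5 of 11 were higher in Smo-cKO, beside 24%. The control count is near the background. Ift74 (mm10 chromosome 4, 94614491 to 94693229, plus strand) was at 52.1 CPM in RG-like and 24.8 CPM in PyN-like cells of control (2.10, 1.74 to 2.53) and at 68.7 and 23.9 CPM in Smo-cKO (2.88, 2.46 to 3.37). Ift57, singled out after its values were seen, was at 72.4 and 30.3 CPM in control and 76.7 and 28.1 CPM in Smo-cKO. Ift20 was at 113 and 113 CPM in control and at 123 and 112 CPM in Smo-cKO, with intervals that included 1. Ift27 was at 96.0 and 89.0 CPM in control (1.08, 0.950 to 1.22) and at 107 and 87.0 CPM in Smo-cKO (1.22, 1.1 to 1.36). Ift46 went the other way, with 46.6 CPM in RG-like and 74.3 CPM in PyN-like cells of control (0.627, 0.526 to 0.744) and 51.7 and 76.4 CPM in Smo-cKO (0.676, 0.587 to 0.777).

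The 3 kinesin-2 genes were below 0 on the log2 scale in both mouse libraries, with medians of -0.28 and -0.25, and 0 of 3 passed 1.5-fold, beside 26.7% and 27.5% of all genes that were lower, so the count of 0 says little. Kifap3 was at 118 CPM in RG-like and 143 CPM in PyN-like cells of control (0.823, 0.736 to 0.918) and at 110 and 131 CPM in Smo-cKO (0.840, 0.762 to 0.926). It was highest in neurons of other clusters, reaching 212 and 179 CPM in a Stmn2-led PyN-like cluster and 194 and 253 CPM in interneuron-like cells. Kif3a was at 60.6 and 62.9 CPM in control, with an interval that included 1. Kif3b was at 15.7 and 20.8 CPM in control (0.756, 0.551 to 1.02) and at 14.6 and 21.6 CPM in Smo-cKO (0.679, 0.517 to 0.882). This motor also moves cargo in axons, which the table cannot separate from its work in cilia.

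BBSome genes had 3 of 8 members higher and 1 lower in both mouse libraries, beside 23.3% and 26.7% of all genes in control and 24% and 27.5% in Smo-cKO. Bbs2 was at 9.99 CPM in RG-like and 4.54 CPM in PyN-like cells of control (2.20, 1.40 to 3.40) and at 12.2 and 3.45 CPM in Smo-cKO (3.53, 2.37 to 5.30). Bbs12, which belongs to the chaperonin complex that assembles the BBSome, was at 11.5 and 4.47 CPM in control and at 8.54 and 3.30 CPM in Smo-cKO. Bbs4 was the lower member, at 9.08 and 17.5 CPM in control (0.518, 0.342 to 0.759) and at 9.76 and 15.6 CPM in Smo-cKO (0.625, 0.447 to 0.859), so 2 subunits of 1 complex were tilted in opposite directions. Bbs9, a scaffold subunit, was at 9.99 and 7.14 CPM in control, with an interval that included 1.

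In the transition zone, 4 of 7 members were higher in control and 3 of 7 in Smo-cKO, beside 23.3% and 24% of all genes. B9d1 had 102 CPM in RG-like and 41.3 CPM in PyN-like cells of control (2.47, 2.15 to 2.83) and 94.2 and 31.5 CPM in Smo-cKO (2.99, 2.62 to 3.42). Its partner B9d2 was at 25.7 and 34.2 CPM in control and at 35.4 and 28 CPM in Smo-cKO, opposite directions within 1.5-fold. Cep290, which links membrane and microtubules there, was at 36.9 and 23.1 CPM in control and at 30.1 and 20.8 CPM in Smo-cKO. Tulp3, which brings receptors into the cilium with IFT-A, was at 28.5 and 16.7 CPM in control (1.70, 1.32 to 2.17) and at 27.0 and 16.3 CPM in Smo-cKO (1.66, 1.33 to 2.07).

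**Figure D3:**
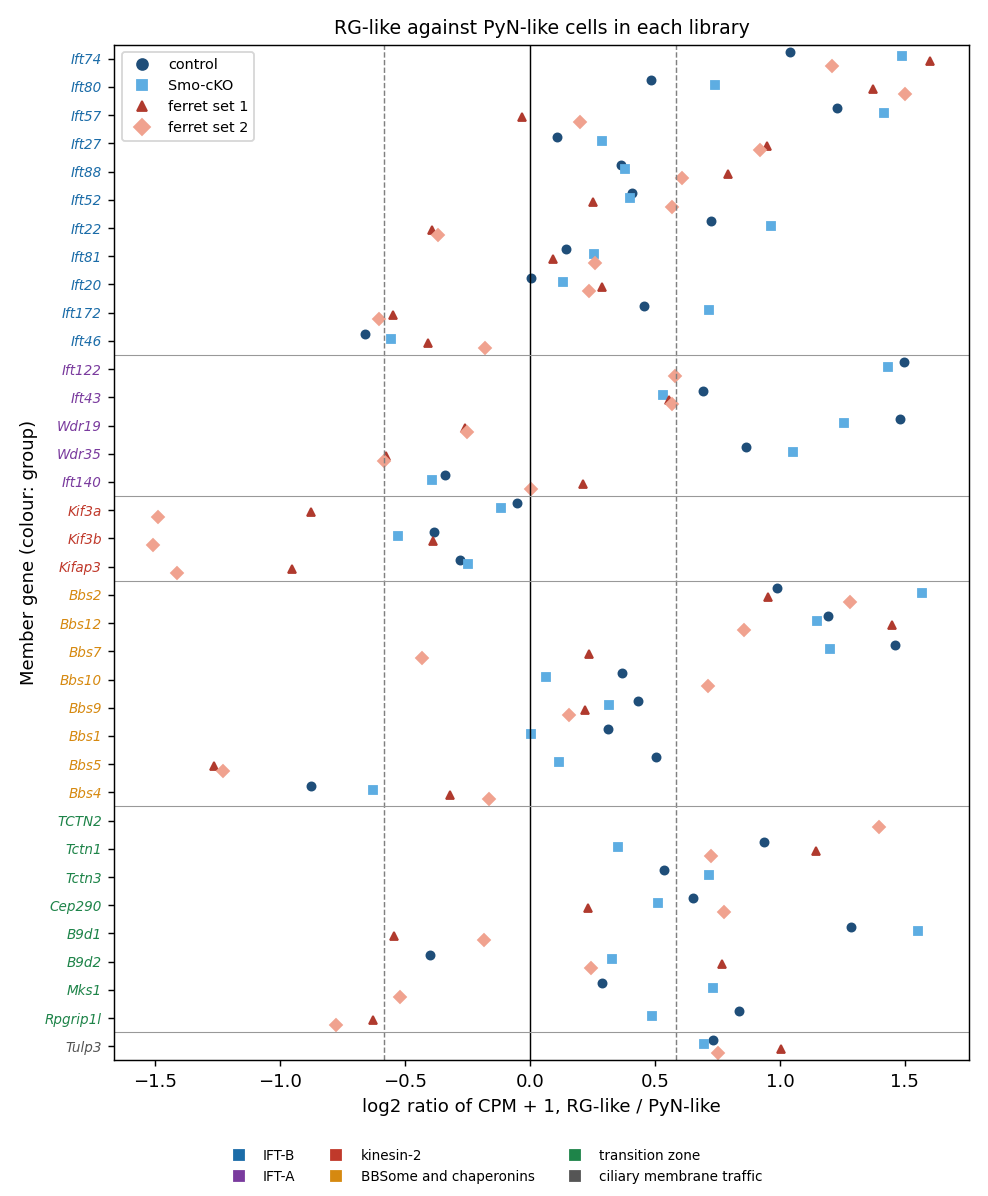
log2 ratio of CPM + 1, RG-like over PyN-like cells, for each member with at least 50 UMIs in the control, Smo-cKO and ferret libraries (marker shapes), with dashed lines at 1.5-fold. Ift74, Bbs2, Bbs12 and Tulp3 lie right of the upper line in all 4 libraries, while the kinesin-2 genes lie left of 0 in all 4.

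In ferret set 1, 9 of 30 members were higher and 4 lower in RG-like than in PyN-like cells, beside 19% and 20.9% of all genes, and in set 2 11 of 34 were higher and 7 lower, beside 23.5% and 21.3%. The medians were 0.22 and 0.22, and those of all genes -0.03 and 0.04. Over the alternatives run, the medians went from 0.02 to 0.42 in set 1 and from 0.16 to 0.32 in set 2, and from 0.32 to 0.56 in mouse control and 0.37 to 0.58 in Smo-cKO, and the difference between species was not tested. The sets shared 8 higher members (88.9% of the 9 of each over the 30 members tested in both): BBS2, BBS12, IFT27, IFT74, IFT80, IFT88, TCTN1 and TULP3. Over all genes tested in both sets, 86.6% of those higher in set 1 and 74.5% of those higher in set 2 were shared. The members' summed level did not show this tilt, at 1045 CPM in both RG-like and PyN-like cells of set 1. In set 2 it was 1207 and 1260 CPM, with overlapping Poisson intervals. It was 1213 and 1433 CPM in the cycling RG-like cells of sets 1 and 2, and 1087 and 1367 CPM in interneuron-like cells. Ferret RG-like cells held S-phase markers and numbered 652 and 712. Mouse and ferret libraries differ in stage, sorting, gene models and share of unnamed cells, which cannot be told apart from species.

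Of the 30 members tested in all 4 libraries, 4 were higher past 1.5-fold in each, 0 were lower in each, 14 were above 0 in each and 5 were below 0 in each. Of the 7131 genes tested in all 4 libraries, 7.81% were higher and 8.72% lower in each, and 23.9% were above and 28.2% below 0 in each. The 4 members were IFT74, BBS2, BBS12 and TULP3. IFT74 had 21.8 and 6.52 CPM in set 1 (3.34, 2.06 to 5.49) and 29.7 and 12.3 CPM in set 2 (2.42, 1.83 to 3.19). BBS2 had 13.6 and 6.52 CPM in set 1 and 20.1 and 7.71 CPM in set 2, BBS12 had 16 and 5.21 CPM and 14.1 and 7.32 CPM, and TULP3 had 14.5 and 6.73 CPM and 17.6 and 10.0 CPM. In mouse, Bbs2 lies on chromosome 8 (94067954 to 94098928, minus strand), Bbs12 on chromosome 3 (37312554 to 37321453, plus) and Tulp3 on chromosome 6 (128321161 to 128355851, minus).

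IFT80, TCTN1 and TCTN2 were also higher in ferret RG-like cells. IFT80, an IFT-B subunit, was at 31.9 CPM in RG-like and 11.7 CPM in PyN-like cells of set 1 (2.72, 1.87 to 3.98) and at 52.1 and 17.8 CPM in set 2 (2.94, 2.36 to 3.65), beside 17.6 and 12.3 CPM in mouse control (1.43, 1.04 to 1.94) and 17.1 and 9.84 CPM in Smo-cKO (1.74, 1.30 to 2.30). TCTN1 was at 32.9 and 14.3 CPM and at 44.4 and 26.5 CPM, beside 7.27 and 3.32 CPM in mouse control and 6.30 and 4.73 CPM in Smo-cKO. TCTN2 was at 10.9 CPM in RG-like and 3.51 CPM in PyN-like cells of set 2 (3.10, 1.88 to 5.09), and in set 1 it had only 11 and 5 UMIs.

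The kinesin-2 genes were also below 0 in ferret RG-like cells. KIFAP3 was at 137 CPM in RG-like and 267 CPM in PyN-like cells of set 1 (0.515, 0.451 to 0.586) and at 110 and 295 CPM in set 2 (0.373, 0.333 to 0.417). KIF3A was at 52.3 and 96.9 CPM (0.539, 0.433 to 0.667) and at 45.7 and 130 CPM (0.351, 0.294 to 0.418). KIF3B was at 8.23 and 11.1 CPM and at 7.03 and 21.8 CPM, past 1.5-fold in set 2. In ferret microglia-like cells KIFAP3 was at 201 and 169 CPM, above the RG-like level in both sets, although these cells had only 278633 and 272922 UMIs in all.

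Of the 30 members tested in all 4 libraries, 8 had one sign in both mouse libraries and the other in both ferret sets, beside 23.9% of the 7131 genes, so the count is near the background. BBS5, a lipid-binding BBSome subunit, was at 7.57 CPM in RG-like and 5.05 CPM in PyN-like cells of control and at 6.91 and 6.31 CPM in Smo-cKO, against 11.6 and 29.3 CPM in ferret set 1 and 12.1 and 29.8 CPM in set 2. RPGRIP1L, a transition zone scaffold, was at 17.3 and 9.23 CPM in control and 15 and 10.4 CPM in Smo-cKO, against 28.1 and 43.9 CPM and 24.0 and 41.7 CPM in ferret. B9D1, with its large excess in mouse RG-like cells, was at 19.4 and 28.7 CPM in set 1 and at 30.4 and 34.6 CPM in set 2, and its opposite signs held in 6 of 9 alternatives.

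**Figure D4:**
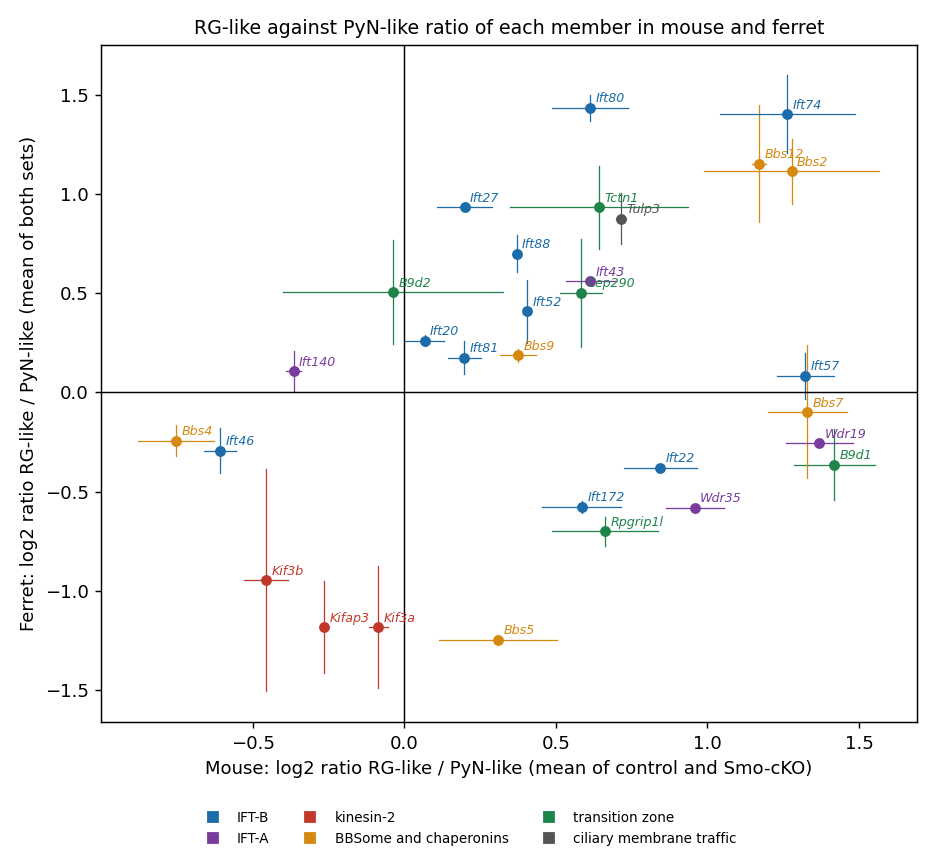
Mean log2 ratio, RG-like over PyN-like, of each member tested in all 4 libraries, in mouse (x, mean of control and Smo-cKO) and ferret (y, mean of both barcode sets), with lines joining the 2 values behind each mean. Ift74, Bbs2 and Bbs12 sit at the upper right, Kifap3, Kif3a and Kif3b at the lower left, and B9d1, Wdr19, Wdr35, Rpgrip1l and Bbs5 at the lower right.

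The third comparison sets cycling RG-like cells, whose clusters held G2/M markers, beside the other RG-like cells, since a cell takes down its primary cilium around mitosis and rebuilds it afterward. In mouse few members differed. In control 2 of 33 were higher in cycling cells and 1 was lower, beside 11.7% and 10.1% of all genes, with a median log2 ratio of -0.01, and in Smo-cKO 1 of 33 was higher and 1 lower, beside 9.76% and 13.9%, with a median of -0.16. The medians of all genes were 0.00 and -0.07. Ift43 was at 70.0 CPM in cycling and 125 CPM in the other RG-like cells of control (0.560, 0.489 to 0.641) and at 75.0 and 107 CPM in Smo-cKO (0.701, 0.608 to 0.809). The members higher in control were B9d2, at 42.6 and 25.7 CPM, and Ift140, a core subunit of IFT-A, at 8.93 and 5.15 CPM. In Smo-cKO Ift80 was higher, at 27.6 and 17.1 CPM, and Bbs4 was lower, at 5.08 and 9.76 CPM.

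In ferret the other RG-like cells held S-phase markers themselves, so this comparison sets G2/M beside S-phase-marked cells there and not cycling beside resting ones. The cells with G2/M markers numbered 223 and 216. Over both sets together, 4 of 33 members were higher and 0 lower, beside 18.4% of all genes past 1.5-fold in either direction. In set 1, 4 of 20 were higher and 0 lower, beside 11.9% and 9.38% of all genes. In set 2, 7 of 29 were higher and 1 lower, beside 9.13% and 11.1%. The medians were 0.27 and 0.19, those of all genes 0.03 and -0.02, and over the alternatives run the members' medians went from 0.08 to 0.27 in set 1 and from -0.01 to 0.26 in set 2. IFT74 was at 49.1 CPM in cycling and 21.8 CPM in the other RG-like cells of set 1 (2.25, 1.45 to 3.49) and at 103 and 29.7 CPM in set 2 (3.47, 2.64 to 4.58). RPGRIP1L was at 66.9 and 28.1 CPM (2.38, 1.63 to 3.48) and at 51.2 and 24.0 CPM (2.13, 1.5 to 3.02). BBS12 was at 30.1 and 16 CPM and at 27.2 and 14.1 CPM. These were the 3 members higher in both sets, which is 75% of the 4 of set 1 and 60% of the 5 of set 2 among the 20 members tested in both, beside 50.5% and 69.7% over all genes. IFT80 was past 1.5-fold in set 1, at 63.6 and 31.9 CPM, and IFT140, WDR19, IFT22 and BBS5 in set 2, while B9D1 was lower there, at 19.2 and 30.4 CPM. In mouse, cycling RG-like cells had Ift74 at 72.3 CPM beside 52.1 CPM in control (1.39, 1.16 to 1.66) and at 83.0 beside 68.7 CPM in Smo-cKO (1.21, 1.04 to 1.41), the same direction within 1.5-fold.

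**Figure D5:**
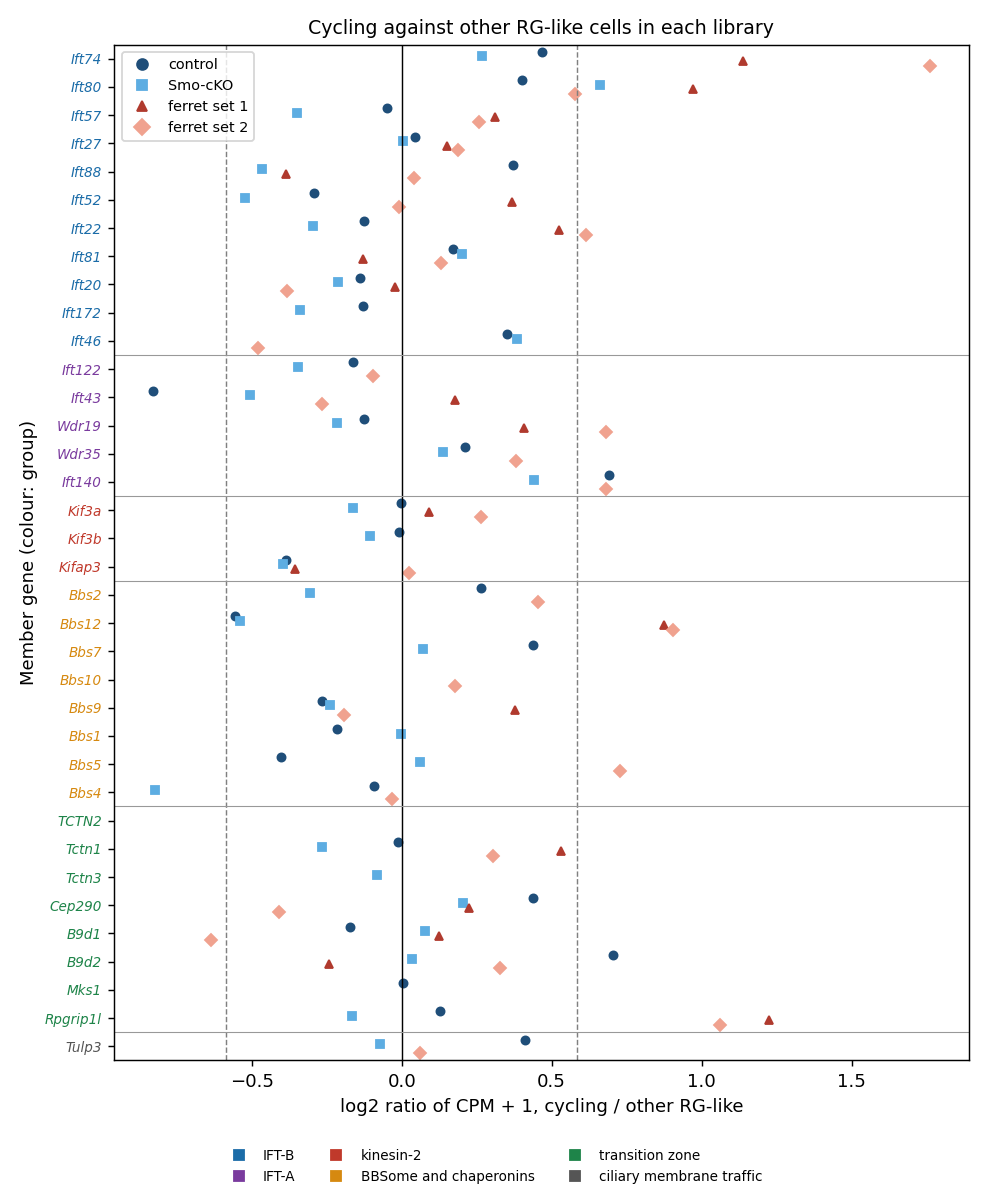
log2 ratio of CPM + 1, cycling over other RG-like cells, for each member with at least 50 UMIs in each library (marker shapes), with dashed lines at 1.5-fold. Ift74 lies right of 0 in all 4 libraries, and Rpgrip1l and Bbs12 lie beyond the upper line in both ferret sets and in neither mouse library.

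RFX transcription factors and FOXJ1 are the known activators of ciliary genes. Of 6 such factors read, 4 were tested in control, and 1 was higher past 1.5-fold in RG-like than in PyN-like cells. In Smo-cKO it was 2 of 5, and in ferret 1 of 4 in set 1 and 2 of 5 in set 2. Of all genes, 23.3%, 24%, 19% and 23.5% were higher. In each library 0 were lower, beside 26.7%, 27.5%, 20.9% and 21.3% of all genes. The factors' median log2 ratios were -0.01, -0.07, -0.48 and 0.25. Rfx4 was at 58.4 CPM in RG-like and 0.577 CPM in PyN-like cells of control and at 55.9 and 0.901 CPM in Smo-cKO, and in ferret RFX4 was at 61.0 and 1.09 CPM in set 1 and at 88.9 and 0.780 CPM in set 2. Rfx3 was even between the mouse classes, at 44.2 and 43.6 CPM in control and 41.5 and 43.5 CPM in Smo-cKO. Foxj1, which drives motile cilia, was at 11.5 and 15.9 CPM in RG-like cells of control and Smo-cKO and at 0.361 and 0.375 CPM in PyN-like cells, and FOXJ1 had 2 and 0 UMIs in the ferret RG-like sets. The 6 multiciliated cell markers of the mouse table summed to 52.7 and 39.4 CPM in RG-like cells and to 1.30 and 1.28 CPM in PyN-like cells. Their part in the members' tilt toward RG-like cells was not tested.

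Other genes of the cilium and its base, 64 in the mouse and 58 in the ferret table, were read beside the members. In RG-like cells 1 of 51 was higher and 2 were lower in Smo-cKO than in control past 1.5-fold, beside 5.64% and 4.73% of all genes, with a median log2 ratio of -0.07, and in PyN-like cells 0 of 57 passed in either direction, beside 2.67% higher and 1.27% lower of all genes, so few were to be found there. In cycling RG-like cells 1 of 52 was higher and 3 were lower, beside 3.72% and 6.61%, with a median of -0.10 and 38 of 52 below 0. Of all genes 57.9% were below 0 in that class, with a median of -0.05. In cycling bMIPC-like cells 1 of 59 was higher and 3 were lower, beside 6.76% and 4.32%, with a median of -0.18 and 41 of 59 below 0. Of all genes 5303 of 10496 were below 0 there, with a median of 0.00. Whether the cilium genes differ from all genes in these signs was not tested. Between RG-like and PyN-like cells, 20 of 54 were higher and 9 lower in control, beside 23.3% and 26.7% of all genes, and 23 of 56 were higher and 11 lower in Smo-cKO, beside 24% and 27.5%. In ferret the counts were 14 and 5 of 48 in set 1, beside 19% and 20.9%, and 15 and 8 of 53 in set 2, beside 23.5% and 21.3%. Whether these counts differ from the members' own was not tested.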

How the data were processed

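Cortical cells were measured by droplet single-cell RNA sequencing in 1 control, 1 Smo-cKO and 2 ferret cell sets. The authors processed reads with Cell Ranger and deposited raw UMI counts for each cell. The submitters' processing notes also name StringTie, Seurat 3 and the build mm10, and the ferret build is not given in the sources used here.

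The members and lists were chosen with earlier results of these data known, and 1 gene of the list is not reported here. Cells with 750 to 5000 genes and under 10% mitochondrial UMIs were kept. Counts were log-normalized and integrated by anchors (Seurat 5.3.0, R 4.3.3), using 2000 variable genes without the members, 30 dimensions and resolution 0.8. Each cluster was named for the class with most markers (log2 fold of at least 1 with 10 CPM added, in at least 10% of cells, at least 3 markers and 25% of the list), thresholds set after seeing the clusters. Class names were therefore rebuilt here, and doublets were not removed. UMIs were summed per library and class. CPM intervals are exact Poisson, and ratio intervals are exact conditional binomial at 95%. Called members had 50 or more UMIs over both groups and a ratio, with 1 CPM added, past 1.5-fold. No p-value was computed, because each genotype has 1 library. Named genes were the 3 members with most UMIs in each group and those past 1.5-fold in the main comparisons, up to 8 per direction. The ratio calculation was tested on simulated Poisson counts with known folds. These counts hold no spread between cells or libraries beyond counting error. GENCODE vM21 gave gene positions.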

Additional observations from a re-analysis of the deposited data

Results flagged for a closer look

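For 8 of the 30 members tested in all 4 libraries, beside 23.9% of all 7131 genes so tested, every mouse library pointed one way between RG-like and PyN-like cells and both ferret sets the other way. The difference was not tested, and species cannot be told apart from stage, sorting and gene models. As mouse minus ferret mean log2 ratio, it was 1.78 for B9D1 (mouse mean 1.42, ferret -0.36), 1.62 for WDR19 (1.37 and -0.26), 1.56 for BBS5 (0.31 and -1.25), 1.54 for WDR35 (0.96 and -0.58), 1.36 for RPGRIP1L (0.66 and -0.70), 1.23 for IFT22 (0.85 and -0.38) and 1.16 for IFT172 (0.59 and -0.58). It was -0.47 for IFT140 (-0.37 and 0.11), where ferret set 2 was at 0.00 and set 1 at 0.21. Under 9 alternatives the opposite signs stayed in 9 for BBS5, IFT172, RPGRIP1L and WDR35, in 8 for WDR19, in 7 for IFT22, in 6 for B9D1 and in 4 for IFT140.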

How the results depend on the processing

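The genotype result held under each alternative run: 0 members passed 1.5-fold in RG-like cells under 15 alternatives, with medians from -0.05 to 0.06. In PyN-like cells 0 passed under 13, with medians from -0.1 to -0.04. Under these alternatives 6.42% to 13.8% of all genes passed in RG-like cells and 1.29% to 4.59% in PyN-like cells. The count of 0 is thus near the background in PyN-like cells and says little there. In RG-like cells it also says little at 200 UMIs (0 of 15 members) and with 5 CPM added (0 of 31). Each of these stood beside 6.42% of all genes. At 200 UMIs only 15 members were tested in RG-like cells and 23 in PyN-like cells. Of 571 alternative log2 ratios of the 54 member and library pairs past 1.5-fold, 549 moved by less than their counting interval, 22 moved by more and 0 changed sign. Counts of members past 1.5-fold moved with the UMI minimum, which also sets how many are tested. At 200 UMIs, RG-like against PyN-like cells gave 11 of 20 tested in control (17 of 35 as reported), 9 of 21 in Smo-cKO (16 of 35) and 5 of 10 in ferret set 1 (13 of 30), beside 46.9%, 48.5% and 37.1% of all genes (50%, 51.5% and 39.9% as reported). Cycling against other RG-like cells gave 0 of 16 in Smo-cKO (2 of 33), 0 of 2 in ferret set 1 (4 of 20) and 1 of 10 in set 2 (8 of 29), beside 18.8%, 14.4% and 14.1% of all genes (23.6%, 21.3% and 20.2%). The other cycling counts follow, each with the share of all genes under the same setting. A minimum of 20 gave 8 of 32 in ferret set 1 (26.1%). With 5 CPM added they were 0 of 33 in Smo-cKO (17.5%) and 5 of 29 in ferret set 2 (15.8%). At resolution 0.4 they were 4 of 35 in Smo-cKO (21.4%) and 7 of 34 over both ferret sets (18.6%), where 4 of 33 were reported (18.4%), and at resolution 1.6 they were 4 of 26 in set 2 (18.8%). Cells with at least 1000 genes gave 4 of 35 in Smo-cKO (21.3%) and 4 of 26 in set 2 (19.3%), clustering without integration 4 of 35 in Smo-cKO (22.6%), and a mean over cells 7 of 20 in set 1 (23.9%). Leaving out 1 ferret set at a time gave 4 to 8 (21.3% and 20.2%). With clusters named from 3 markers, chosen after seeing the data, the control count was 5 of 35 (17.4%), where 3 of 33 were reported (21.8%). The cause was not tested. No paired analysis was possible because each genotype has 1 library. Promoter motifs were not searched, as no promoter sequences were used here. Members under about 10 CPM, most of the BBSome, are limited by depth.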

Other observations

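A few single cells held many UMIs of 1 member. Tulp3 had 193 UMIs in 1 Smo-cKO microglia-like cell of 23084 UMIs, and without it the class was at 3.31 CPM in Smo-cKO (6 UMIs, 95% Poisson interval 1.22 to 7.21) instead of 108 CPM, beside 10.1 CPM in control (10 UMIs, 4.84 to 18.6). These intervals overlap. Tulp3 also had 32 UMIs in 1 control PyN-like cell of 2757 UMIs. Tctn1 had 22 UMIs in 1 Smo-cKO bMIPC-like cell of 6444 UMIs. In ferret, IFT88 had 14 UMIs in 1 RG-like cell of set 1 with 4430 UMIs, and KIFAP3 had up to 20 UMIs in 1 cell. An alternative without cells holding 10 or more UMIs of 1 member was chosen after seeing the data. In ferret set 1, the same 9 of 30 members were higher and the same 4 lower in RG-like than in PyN-like cells. Beside them, 39.8% of all genes passed 1.5-fold in either direction. Over both ferret sets the higher members in that comparison went from 11 to 10 of 35, with 7 lower each time. Of all genes, 43.7% passed in either direction each time. The members higher in cycling than in other RG-like cells went from 4 to 5, of 33 over both sets and of 20 in set 1. Of all genes, 18.4% and then 18.5% passed in either direction over both sets, and 21.3% each time in set 1. Bbs7, picked out after its values were seen, was at 9.69 CPM in RG-like and 2.88 CPM in PyN-like cells of control and at 10.8 and 4.13 CPM in Smo-cKO, while in ferret BBS7 was at 10.2 and 8.47 CPM in set 1 and at 7.03 and 9.85 CPM in set 2.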
